A study of Rattus norvegicus with 43 samples.

Results

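Lung transcripts of rats given Targretin were set against those of rats given 9-cis retinoic acid (9cRA). The 7 arrays compared, 3 of Targretin lung and 4 of 9cRA lung, were taken by their sample titles from a series of 43 arrays on liver, lung and mammary gland. Of the 8799 probe sets on each array, 59 controls were left out and 8740 kept. The Targretin dose was 60 mg per kg of body weight, by gavage, and the 9cRA dose 100 mg per kg of diet, in the feed, each for 7 days to female Sprague-Dawley rats, an outbred strain, from an age of 100 days. The other 7 lung arrays, 4 of rats fed 4-hydroxyphenylretinamide (4HPR) at 782 mg per kg diet and 3 of rats on diet only, entered the fit to estimate the spread, and their values are given beside the main ones. The agents differed in dose and route, and the labels name no gavage control, so agent, dose and route cannot be told apart. Nothing in the labels says whether each array is a separate rat, so a p-value measures the spread between these arrays, which may be technical.

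Retinoid X receptors (RXR) bind DNA as partners of other nuclear receptors: the retinoic acid receptors (RAR), the peroxisome proliferator-activated receptors (PPAR) and the liver X receptors (LXR), among others. Targretin (bexarotene), a synthetic aromatic carboxylic acid, is a ligand of RXR, and with some partners, such as LXR and PPAR, an RXR ligand alone can switch the pair on. 9cRA, an isomer of all-trans retinoic acid, is a ligand of both RAR and RXR. In lung, retinoic acid takes part in the formation of alveoli and in keeping the airway lining, and RXR partners steer fatty acid synthesis, fatty acid oxidation and macrophage genes.

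All 14 lung arrays carried the transcripts that define lung. Sftpc (probe set X14221_at), the surfactant protein of alveolar type II cells, had signals of 92304, 166610 and 101669 on the Targretin arrays, against 142156, 89337, 120201 and 97144 on the 9cRA arrays. Values are MAS5 signals, an intensity with no unit, and the median signal of the lung arrays was between 466.2 and 633.3. Targretin array 2 stood apart. Its median Spearman correlation with the other lung arrays was 0.810 (0.882 to 0.928 on the other 13), and its ratio of 3' to 5' signal, which increases as RNA degrades, was 5.46 for beta-actin (1.03 to 1.63 on the other 13) and 2.54 for Gapdh (0.867 to 1.54). Among the diet arrays, array 2 carried liver transcripts that arrays 3 and 4 lacked. The number of arrays limits the precision.

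One transcript passed the test between the agents: Scd, stearoyl-CoA desaturase, which makes monounsaturated fatty acids, was 4.66 times as high with Targretin as with 9cRA. It was the only one of 5935 probe sets tested (0.0168%) with a limma p under 0.05 after Benjamini-Hochberg adjustment. At an unadjusted p under 0.05 there were 623 probe sets (10.5%), of which 290 (4.89%) had a difference above 0 and 333 (5.61%) one below 0. Signals of the 2 groups did not overlap for 488 probe sets (8.22%): 211 (3.56%) were higher on every Targretin array and 277 (4.67%) lower. Each difference below is in log2(signal + 38.1), Targretin minus 9cRA, with its standard error, and at low signals this scale understates a fold. Over all probe sets tested the median difference was 0.02. In the plot of difference against signal level, Scd is ringed, and most of the differences below -2 belong to transcripts that untreated liver carries at far higher signal than untreated lung.

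**Figure D1:**
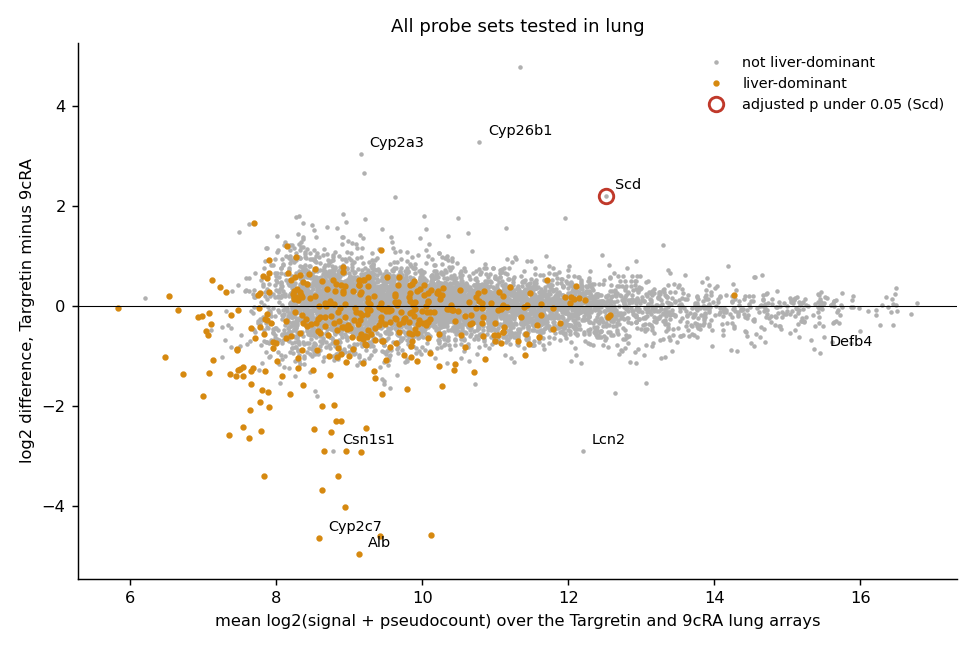
Difference between the agents for the 5935 probe sets tested in lung: the horizontal axis is the mean log2(signal + pseudocount) over the 7 arrays, the vertical axis the log2 difference, Targretin minus 9cRA. Orange points are probe sets with a diet liver mean at least 4 times their diet lung mean, and the red ring marks Scd, the 1 probe set that passed the test.

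Scd (J02585_at) had signals of 17241, 9682 and 16486 on the Targretin arrays, against 3929, 3685, 2763 and 2055 on the 9cRA arrays. Every Targretin array was above every 9cRA array, and the lowest Targretin value was the one on array 2. The means were 14469.6 ± 4163 and 3108 ± 863 (SD, n = 3 and 4), and the difference was 2.20 ± 0.29 (95% interval 1.58 to 2.83, adjusted p = 0.0124). The diet arrays, at 7335, 9348 and 9458, and the 4HPR arrays, at 6552 to 13929.7, lay above every 9cRA array, and the highest diet value was below the lowest Targretin value. The call was lost without Targretin array 1 (difference 2.06, adjusted p = 0.125), without 9cRA array 3 (2.16, 0.0733) and without 9cRA array 4 (2.02, 0.0522), and the difference stayed above 2 in all of these; over all alternatives the adjusted p was 0.00247 to 0.125. A second, far dimmer Scd probe set (rc_AI175764_s_at) had 1580.3, 16.4 and 583 on the Targretin arrays, against 189, 106, 66.4 and 25.5 on the 9cRA arrays, with a difference of 1.65 ± 0.92 (adjusted p = 0.535) and Targretin array 2 below every 9cRA array. In lung pieces with many cell types, fewer cells of a type and less RNA per cell cannot be told apart.

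The bases upstream of a gene show which receptor half-sites lie close to its start. The 250 bases before the start of Scd (chr1:253231732-253231981, minus strand) are shown because Scd carried the only call, those of Cyp26b1 (chr4:118616177-118616426, minus strand) because it had the largest difference above 0 among retinoid genes, and those of Fabp1 (chr4:104749090-104749339, plus strand) and Cyp2c7 (chr1:247966144-247966393, plus strand) because both are liver transcripts, described further on, at signals of 49.8 or less on the Targretin arrays. Sequences and positions are from RefSeq, build GRCr8, and capitals mark the half-site AGGTCA, shared by RAR, RXR and PPAR, on either strand.
Scd: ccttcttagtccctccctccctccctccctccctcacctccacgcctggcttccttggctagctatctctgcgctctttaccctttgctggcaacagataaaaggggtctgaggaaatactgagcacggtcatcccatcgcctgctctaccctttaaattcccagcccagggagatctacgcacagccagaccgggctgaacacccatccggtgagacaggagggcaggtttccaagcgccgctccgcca
Cyp26b1: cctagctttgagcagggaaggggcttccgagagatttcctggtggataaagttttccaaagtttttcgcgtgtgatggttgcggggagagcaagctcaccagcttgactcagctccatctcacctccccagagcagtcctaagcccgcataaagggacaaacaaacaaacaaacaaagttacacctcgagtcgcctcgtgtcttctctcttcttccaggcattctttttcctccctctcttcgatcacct
Fabp1: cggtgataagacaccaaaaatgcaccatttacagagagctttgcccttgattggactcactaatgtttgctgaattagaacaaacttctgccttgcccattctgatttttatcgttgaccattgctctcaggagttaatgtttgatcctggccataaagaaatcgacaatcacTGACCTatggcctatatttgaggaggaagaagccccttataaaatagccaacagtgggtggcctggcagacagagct
Cyp2c7: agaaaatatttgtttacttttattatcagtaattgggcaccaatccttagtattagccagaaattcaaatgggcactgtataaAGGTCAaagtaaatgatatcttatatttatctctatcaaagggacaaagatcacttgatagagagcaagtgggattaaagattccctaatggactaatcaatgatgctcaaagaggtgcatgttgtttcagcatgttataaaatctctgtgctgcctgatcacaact
AGGTCA was found on the minus strand of the Fabp1 window, 77 bases before the start, and on the plus strand of the Cyp2c7 window, 167 bases before the start. Neither AGGTCA, its variants AGTTCA and GGGTCA, nor the unrelated box CCAAT was found on either strand of the Scd and Cyp26b1 windows, which says only that these letters are not within these 250 bases. AGTTCA and GGGTCA were also in neither of the other windows, and CCAAT was found at 1 place in the Fabp1 window and at 2 in the Cyp2c7 window. Of 33469 upstream windows of the same length, AGGTCA was in 14.1%, AGTTCA in 12.2%, GGGTCA in 11.9% and CCAAT in 34%. These matches describe the letters and no binding was measured.

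Of 24 listed genes of fatty acid synthesis and LXR targets, 15 were on the array and 12 were tested. Only Scd passed, but all 12 had a difference above 0, against 51.3% of all probe sets, and the list median was 0.30 against 0.02 over all. Srebf1 (L16995_at), the transcription factor that turns on fatty acid synthesis and is itself an LXR target, had signals of 3634, 1189 and 2579 on the Targretin arrays, against 681, 957, 819 and 854 on the 9cRA arrays. The groups did not overlap, Targretin array 1 was highest and array 2 lowest of its group, and diet arrays read 429, 389.6 and 468; the difference was 1.40 ± 0.38 (adjusted p = 0.298), short of the threshold. Elovl5, a fatty acid elongase, differed by 0.39 ± 0.18 (adjusted p = 0.47). For the following 3, picked after their values were seen, the interval of the difference is given because they are the classic enzymes of the pathway. Fasn, fatty acid synthase, had 4461, 4827 and 4095 on the Targretin arrays, against 4596, 4279.6, 3510.3 and 3255 on the 9cRA arrays, which overlapped (difference 0.20 ± 0.17, interval -0.16 to 0.55, adjusted p = 0.665). Scd2, a second desaturase, differed by 0.44 ± 0.30 (interval -0.20 to 1.08) and Me1, malic enzyme, which supplies NADPH, by 0.20 ± 0.22 (interval -0.27 to 0.67).

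Insig1 (L13619_g_at), which holds the SREBP proteins back in the endoplasmic reticulum, had 3023, 3110.4 and 2813 on the Targretin arrays, against 1736, 1937, 2264 and 2238 on the 9cRA arrays. Its groups did not overlap, yet the difference of 0.54 ± 0.15 did not pass (adjusted p = 0.298), and a second probe set gave 0.16. Of the 13 cholesterol synthesis genes tested, the list that holds Insig1, 0 passed, 4 were above 0 and 9 below, with a median of -0.23.

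**Figure D2:**
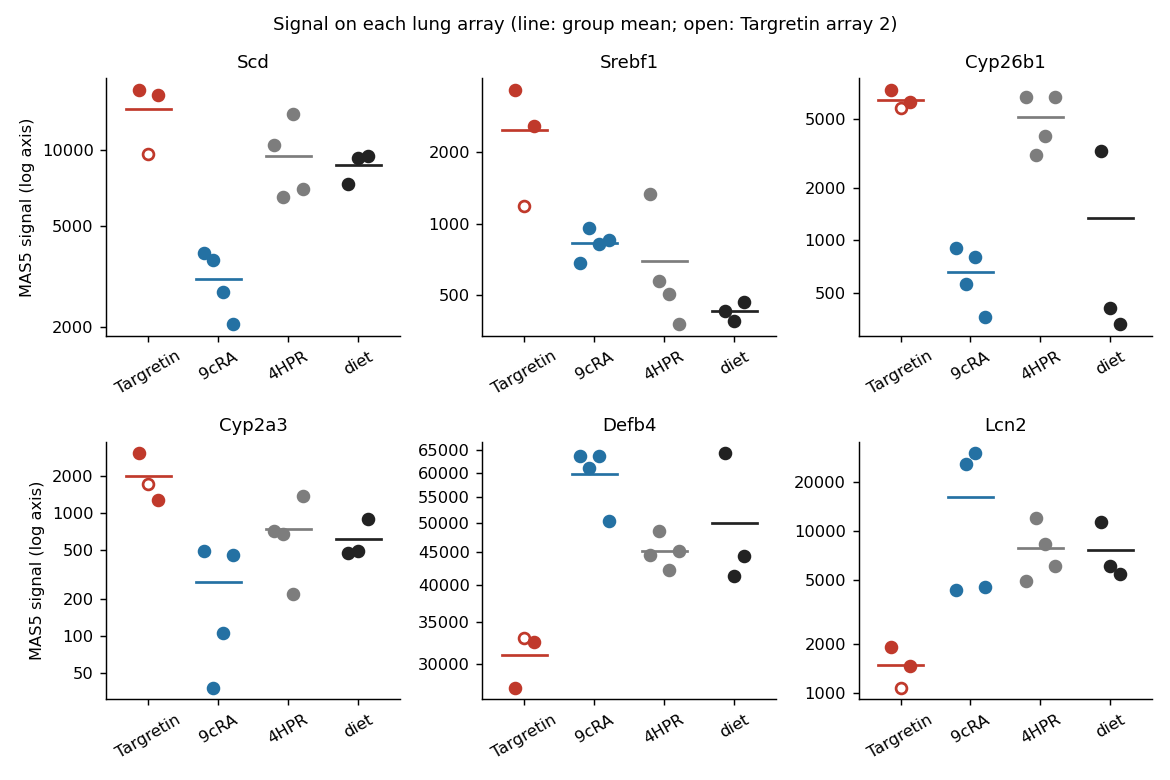
Signal on each lung array (log axis) for Scd, Srebf1, Cyp26b1, Cyp2a3, Defb4 and Lcn2, with Targretin, 9cRA, 4HPR and diet from left to right, a line at each group mean and an open point for Targretin array 2. In all 6 panels the Targretin points lie wholly above or wholly below the 9cRA points, and of these 6 Scd alone passed the test. Scd, Cyp26b1, Cyp2a3, Defb4 and Lcn2 were in the ranking that took only probe sets without overlap.

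Cyp26b1 (rc_AA892066_at), the enzyme that hydroxylates and so clears retinoic acid, had signals of 7298, 5782 and 6239 on the Targretin arrays, against 907, 561, 805 and 364 on the 9cRA arrays. All Targretin values lay far above all 9cRA values. Means were 6439.5 ± 778 and 659 ± 245 (SD, n = 3 and 4), a ratio of 9.77, and the difference was 3.28 ± 0.58 (interval 2.04 to 4.52, unadjusted p = 4.94e-05, adjusted p = 0.0977). It fell short of the threshold in a fit whose diet arrays were far apart, at 3280.3, 406 and 329. Without diet array 2 the adjusted p was 0.000244, and with only the 2 groups in the fit it was 0.000812; over all alternatives it was 0.000244 to 0.35. 4HPR arrays read 6683, 3075, 3991 and 6654, every one above the highest 9cRA array.

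Of 33 listed genes of retinoid handling and receptors, 19 were measured and 12 tested. None passed, 6 were above 0 and 6 below, and the median was -0.0047. Among receptors, Rara, which encodes RAR alpha, had 11028, 6627 and 8415 on the Targretin arrays, against 6799, 6145, 5406 and 5713 on the 9cRA arrays. The groups overlapped by 9cRA array 1, which lay just above Targretin array 2, and the difference was 0.50 ± 0.19 (interval 0.10 to 0.90, adjusted p = 0.377). Rxra, the RXR alpha gene, differed by 0.11 ± 0.52 with an interval of -0.99 to 1.22, and its sign turned without Targretin array 1 or without 9cRA array 1. Rxrb differed by 0.33 ± 0.25 (interval -0.21 to 0.87) and Rxrg by 0.19 ± 0.23 (interval -0.31 to 0.69). Among enzymes that make retinoic acid, Aldh1a1 differed by -0.12 ± 0.23 (interval -0.61 to 0.37) and turned its sign without 9cRA array 4, and Aldh1a2 by -0.22 ± 0.17 (interval -0.59 to 0.15). Rdh10, which oxidises retinol to retinal, differed by -0.70 ± 0.44, a value set by Targretin array 2: without it the difference was 0.04. Rdh16, a dehydrogenase of the same kind, differed by -0.61 ± 0.42. Hoxa5, a homeobox gene of lung known to respond to retinoic acid, had a difference of 0.27 ± 0.21. The plasma carrier Rbp4 differed by -0.65 ± 0.37, and its partner Ttr, a liver transcript, by -3.41 ± 0.95; Ttr is described with the other liver transcripts. Rarb, Rbp2, Crabp1, Crabp2, Rdh7, Adh4 and Adh7 were too dim to test.

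Defb4, Lcn2, Lgals3, Chia and Cxcl3 were among the 15 smallest p-values below 0, and none of them passed the test. That ranking took only probe sets with 1 gene symbol, outside the liver-dominant ones, whose groups did not overlap. Their lack of overlap was therefore set by the choice. Defb4 (AF068861_s_at), a beta-defensin that kills microbes, had 27558, 32921 and 32467 on the Targretin arrays, against 63792, 60919, 63659 and 50326 on the 9cRA arrays. Every Targretin array was below every 9cRA array, with a wide gap between the groups, and the difference was -0.94 ± 0.16 (interval -1.29 to -0.60, adjusted p = 0.0977). It passed under quantile normalization (difference -0.86, adjusted p = 0.0138) and without diet array 2 (adjusted p = 0.00588), and its adjusted p was 0.00588 to 0.371 over all alternatives. Lcn2, lipocalin 2, which binds bacterial siderophores, had 1917, 1081 and 1464 on the Targretin arrays, against 4304, 26039, 30039 and 4494 on the 9cRA arrays. It differed by -2.91 ± 0.61 (adjusted p = 0.248), and 9cRA arrays 2 and 3 stood far above 9cRA arrays 1 and 4. Lgals3, the macrophage lectin galectin 3, had 6922, 8052 and 8080.3 on the Targretin arrays, against 11635, 17382, 18785 and 10928 on the 9cRA arrays (difference -0.89 ± 0.21, adjusted p = 0.264). Chia, acidic chitinase, which digests chitin in the airways, had 4018, 8288 and 5497 on the Targretin arrays, against 10319, 12631, 13407 and 8963 on the 9cRA arrays (difference -0.97 ± 0.25, adjusted p = 0.298). In both, 9cRA arrays 2 and 3 were again the highest and no Targretin array reached the lowest 9cRA array. Cxcl3, a chemokine that draws neutrophils, had 7571, 2946 and 4603 on the Targretin arrays, against 10042, 10840.4, 11672 and 8621 on the 9cRA arrays (difference -1.12 ± 0.28, adjusted p = 0.286).

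The macrophage markers moved with these arrays. Their summed signal over 10 genes was 20753, 25361 and 25938 on the Targretin arrays, against 25589, 48092, 47058 and 26793 on the 9cRA arrays, and none of them was at 0 on any lung array. Their part in the differences of Lcn2, Lgals3 and Chia was not tested. Of 9 macrophage and dendritic cell markers tested, 0 passed, 8 were below 0 (48.7% of all probe sets) and the median was -0.31. Only 1 was lower on every Targretin array, against 4.67% of all probe sets. Of 17 interferon and MHC genes, 0 passed, 13 were below 0, and the median was -0.23. The MHC class II chain RT1-Ba differed by -1.14 ± 0.42 (adjusted p = 0.377) and Irf1, an interferon response factor, by -0.62 ± 0.23 (adjusted p = 0.377). RT1-Da, a second class II chain picked after its values were seen, had 15496, 23345 and 21529 on the Targretin arrays, against 21172, 47876, 45043 and 25394 on the 9cRA arrays, with 9cRA arrays 2 and 3 again the highest.

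The 2 neutrophil markers tested, S100a8 and S100a9, lay above 0, unlike Lcn2. S100a8, one chain of the calcium-binding protein calprotectin that neutrophils carry, had 2493, 1513 and 1963 on the Targretin arrays, against 1104, 1020.1, 734 and 1141 on the 9cRA arrays. S100a9, the other chain, had 3717, 4621 and 3882 on the Targretin arrays, against 2069, 1388, 2707 and 2807 on the 9cRA arrays. The Targretin values of both were above every 9cRA value, with differences of 0.96 ± 0.22 and 0.90 ± 0.23 (adjusted p = 0.262 and 0.298), and of 5 neutrophil markers measured these were the only 2 bright enough to test. Csf2rb, the shared chain of the receptors for GM-CSF, interleukin 3 and interleukin 5, differed by 0.98 ± 0.26 and the adhesion molecule Icam1 by 0.43 ± 0.14 (adjusted p = 0.298 and 0.343). Of 18 inflammation and chemokine genes, 0 passed, 9 were above 0 and 9 below, with a median of 0.02.

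In the airway lining, Cyp2a3 (J02852_at), a cytochrome P450 of rat lung and nose, had 3019, 1693 and 1270.3 on the Targretin arrays, against 488, 38.1, 106 and 457 on the 9cRA arrays. No 9cRA array reached the lowest Targretin array, and 9cRA arrays 2 and 3, the highest for Lcn2, were the lowest here. A second probe set (J02852_g_at) gave 2593, 1431 and 1221 on the Targretin arrays, against 680, 84.2, 65.1 and 518 on the 9cRA arrays. The differences were 3.04 ± 0.65 and 2.67 ± 0.85 (adjusted p = 0.248 and 0.343). Diet arrays read 472, 489.9 and 883 at the first probe set, all below the lowest Targretin array. Cyp2f4, a P450 of club cells, differed by 0.76 ± 0.33 (adjusted p = 0.443). Scgb1a1, the main secretion of club cells, picked after its values were seen, had overlapping signals of 27441, 38493 and 25341 on the Targretin arrays, against 34238, 16057, 25935 and 27237 on the 9cRA arrays and a difference of 0.26 ± 0.22 (interval -0.21 to 0.73). Of 26 genes of xenobiotic metabolism tested, 0 passed, 18 were above 0, and the median was 0.20; of 5 club and ciliated cell markers, 0 passed and the median was 0.35.

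Surfactant genes gave no call. Sftpa1, a surfactant protein that binds microbes, had 37657, 19256 and 38095 on the Targretin arrays, against 56860.2, 57648, 55198 and 48868 on the 9cRA arrays at the probe set X13176cds_s_at, with a difference of -0.85 ± 0.21 (adjusted p = 0.264) and Targretin array 2 far below the rest. Its other probe set (M33201_at) differed by -0.31 ± 0.14. Sftpc differed by 0.07 ± 0.21 (interval -0.38 to 0.52), and Targretin array 2, the array with the high 3' to 5' ratios, was its highest; without that array the difference was -0.19. Of 8 type II cell and surfactant genes, 0 passed, with a median of -0.19.

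Fibroblast and matrix transcripts had list medians below 0, and none passed. Col1a2, a chain of collagen I, had 4501, 4187 and 5718 on the Targretin arrays, against 7871, 9891, 8081 and 7144 on the 9cRA arrays. Col3a1, collagen III, had 13288, 8312 and 14430.4 on the Targretin arrays, against 19773, 23670, 22091 and 16481 on the 9cRA arrays. Tcf21, a transcription factor of lung fibroblasts, had 3816, 1317 and 3782 on the Targretin arrays, against 5034, 6387, 6589 and 5352 on the 9cRA arrays. In all of these every Targretin array was below every 9cRA array, and 9cRA array 2 or 3 was the highest. The differences were -0.78 ± 0.19, -0.80 ± 0.22 and -1.11 ± 0.30 (adjusted p = 0.264, 0.298 and 0.298), and that of Tcf21 was -0.61 without Targretin array 2. Of 24 matrix genes tested, 0 passed, 7 were lower on every Targretin array and 1 higher (4.67% and 3.56% of all probe sets were), with a median of -0.28. Of 11 fibroblast markers, which share collagens and fibronectin with that list, 0 passed and 5 were lower on every Targretin array, against the same 4.67% of all probe sets, with a median of -0.40. The summed fibroblast signal was 58498 to 72441 on the Targretin arrays and 78412 to 101129.9 on the 9cRA arrays, and its part in the collagen differences was not tested. Without Targretin array 2 the medians were -0.24 for matrix genes and -0.44 for fibroblast markers.

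Endothelial markers lay above 0 in 10 of 11 tested, with 0 passing and a median of 0.38. Thbd, thrombomodulin, the thrombin receptor of vessel walls, had 5039.5, 4410.4 and 3824 on the Targretin arrays, against 3807, 2776, 2114 and 2586 on the 9cRA arrays, and its groups parted by a narrow gap. Vwf, von Willebrand factor, had 1909, 365 and 1221 on the Targretin arrays, against 605, 559.8, 261 and 129 on the 9cRA arrays. Vwf overlapped through Targretin array 2. The differences were 0.67 ± 0.22 and 1.42 ± 0.57 (adjusted p = 0.35 and 0.406). The summed endothelial signal was 37045 to 44017 on the Targretin arrays, against 24185 to 35303 on the 9cRA arrays. The plot of gene lists shows the spread of these groups beside the others.

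**Figure D3:**
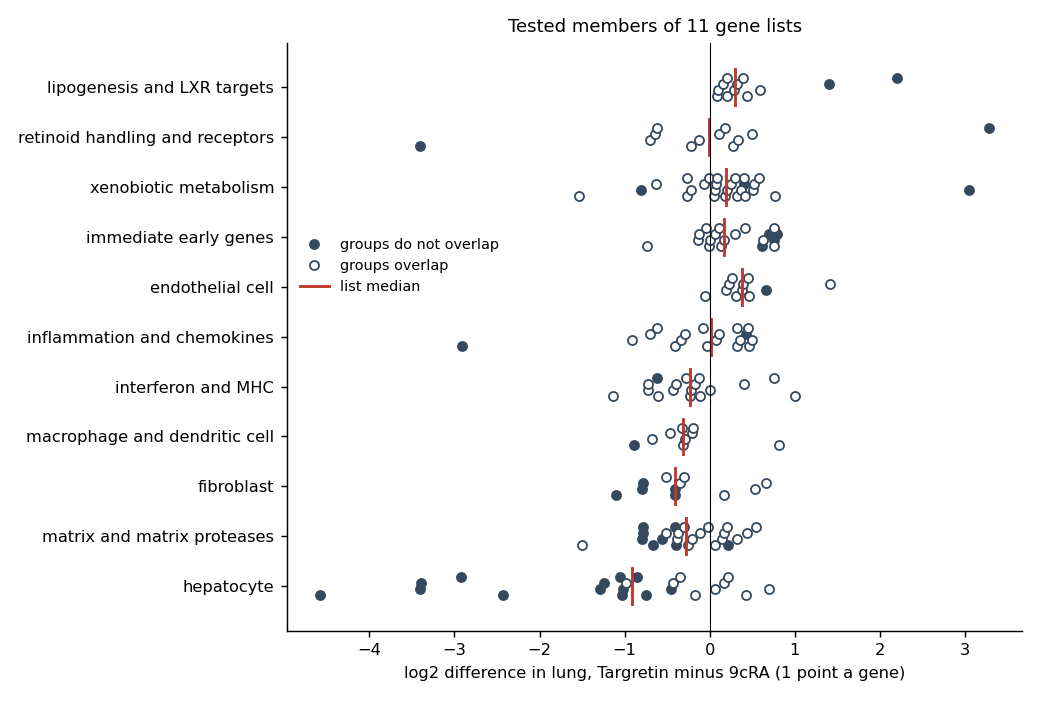
Log2 difference in lung, Targretin minus 9cRA (horizontal axis), for the tested members of 11 gene lists, 1 point a gene, filled where the signals of the 2 groups do not overlap, with a red line at each list median. The 12 lipogenesis genes all lie right of 0, and the hepatocyte genes reach furthest to the left. Of the 22 hepatocyte genes, 13 were lower on every Targretin array, against 4.67% of all probe sets tested.

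Fatty acid oxidation genes, the textbook targets of PPAR with RXR, gave no call in lung. Of 30 tested, 0 passed, 14 were above 0 and 16 below, with a median of -0.0031. Acot1, an acyl-CoA thioesterase induced by PPAR alpha ligands, had 705, 2554 and 3394 on the Targretin arrays, against 637, 505, 177 and 331 on the 9cRA arrays. Its groups did not overlap, although Targretin array 1 lay only just above 9cRA array 1, and the difference was 2.18 ± 0.63 (adjusted p = 0.301). Cpt2, which frees fatty acids inside mitochondria for oxidation, differed by -0.18 ± 0.19 (interval -0.60 to 0.23). In the list of 26 oxidative phosphorylation subunits 0 passed and the median was -0.09.

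The widest gaps below 0 belonged to transcripts of hepatocytes. Alb, serum albumin (rc_AA945321_at), had signals of 41.1, 40.2 and 39.0 on the Targretin arrays, against 3266, 1278, 2600 and 3111 on the 9cRA arrays. Cyp2c7, a cytochrome P450 of female rat liver, had 15.3, 49.8 and 10.2 on the Targretin arrays, against 1789, 1282, 1237 and 1735 on the 9cRA arrays. Fabp1, the fatty acid carrier of liver and gut, had 20.7, 39.4 and 8.0 on the Targretin arrays, against 944, 417, 478 and 631 on the 9cRA arrays. Apoa2, an apolipoprotein of high-density lipoprotein, had 111, 139.8 and 185 on the Targretin arrays, against 1608, 1061, 1158 and 1577 on the 9cRA arrays, and Ttr, transthyretin, 66.9, 205 and 28.1 on the Targretin arrays, against 1496, 974, 1003 and 1549 on the 9cRA arrays. Every 9cRA array carried each of these well above all Targretin arrays, and no Targretin array went above the 205 of Ttr on array 2. The differences were -4.97 ± 1.31 for Alb, -4.65 ± 1.25 for Cyp2c7, -3.40 ± 0.93 for Fabp1, -2.92 ± 0.82 for Apoa2 and -3.41 ± 0.95 for Ttr, each with adjusted p = 0.298. The other Alb probe sets tested differed by -4.61 and -4.58. These 5 genes passed without diet array 2 and with only the 2 groups in the fit. On the other lung arrays Alb varied within a group: it read 11199, 17.1 and 28.3 on the diet arrays and 4652 to 27905 on the 4HPR arrays.

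Of 22 hepatocyte markers tested, 0 passed, 13 were lower on every Targretin array (4.67% of all probe sets were) and 0 higher, and the median was -0.92. Their summed signal over 26 genes was 20498, 24363 and 22064 on the Targretin arrays, against 40295, 32334, 32289 and 36606 on the 9cRA arrays, 44228 to 219907 on the 4HPR arrays and 72838, 17637 and 20175 on the diet arrays; diet livers averaged 1078786. Every Targretin sum was below every 9cRA sum, and the log2 difference of the sums was -0.66. An exact permutation test (two-sided, p = 0.0571) could not pass, since 35 splits allow no p below the threshold. The list was also chosen with earlier results of these data known, so no conclusion is drawn from that test. Probe sets with a diet liver mean at least 4 times their diet lung mean numbered 369 of those tested; 79 of them (21.4%) were lower on every Targretin array and 3 higher, while among the other 5566 there were 198 lower (3.56%) and 208 higher (3.74%). Scd, Cyp26b1, Defb4 and Lcn2 were among the other 5566. Whether the liver transcripts were made in lung or came with RNA of another organ was not tested. Their differences are therefore differences between the samples as collected. The part of liver transcripts in the differences of genes that both organs express was not tested.

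Milk protein transcripts, looked at after their values were seen, were high on 1 array. Csn1s1, alpha-casein, had 56.8, 303 and 45.9 on the Targretin arrays, against 4882, 916, 551 and 383 on the 9cRA arrays, a difference of -2.90 ± 0.74 (adjusted p = 0.298). Csn3, kappa-casein, had 227, 321 and 551 on the Targretin arrays, against 4351, 448, 983 and 713 on the 9cRA arrays, a difference of -1.56 ± 0.58 that was -0.91 without 9cRA array 1. The summed signal of 7 milk protein genes was 1822, 2189 and 1140.1 on the Targretin arrays, against 14394, 2587, 2359 and 2031 on the 9cRA arrays, and averaged 195762 in diet mammary glands. 9cRA array 1 stands alone among them, and whether its casein transcripts came from lung was likewise not tested.

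**Figure D4:**
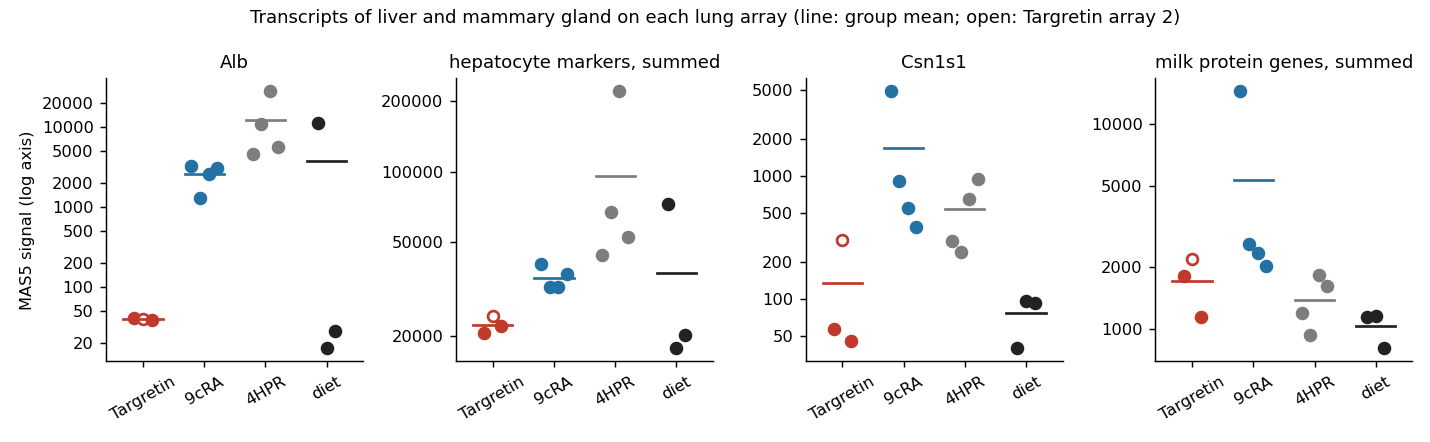
Signal on each lung array (log axis) for Alb, the sum of 26 hepatocyte markers, Csn1s1 and the sum of 7 milk protein genes, with Targretin, 9cRA, 4HPR and diet from left to right, a line at each group mean and an open point for Targretin array 2. Alb is at 39.0 to 41.1 on the Targretin arrays and at 1278 to 3266 on the 9cRA arrays, and 9cRA array 1 is the top point of both casein panels.

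Tns1, P2ry4, Prkce, Aqp3 and Dusp5 were among the 15 smallest p-values above 0, and none of them passed the test. That ranking took only probe sets with 1 gene symbol, outside the liver-dominant ones, whose groups did not overlap. Tns1, tensin 1, which ties integrins to actin, had 5914, 4952 and 2529.7 on the Targretin arrays, against 1862, 1264, 1001 and 1589 on the 9cRA arrays (difference 1.57 ± 0.33, adjusted p = 0.248). P2ry4, a receptor for extracellular nucleotides, had 424, 974 and 514 on the Targretin arrays, against 212, 179, 137 and 135 on the 9cRA arrays (difference 1.66 ± 0.36). Prkce, protein kinase C epsilon, had 1908, 1929 and 1308 on the Targretin arrays, against 393, 541, 739.6 and 1008 on the 9cRA arrays (difference 1.36 ± 0.30), and its other 3 probe sets differed by 0.43 to 1.01. In these the Targretin arrays lay above all 9cRA arrays, which the choice required. Aqp3, a channel for water and glycerol, had 795, 658 and 1198 on the Targretin arrays, against 328, 446, 314 and 297 on the 9cRA arrays (difference 1.23 ± 0.30). Dusp5, a phosphatase that turns off ERK kinases, had 1808, 2226 and 1935 on the Targretin arrays, against 1094, 1093, 1418 and 1257 on the 9cRA arrays (difference 0.70 ± 0.16). Dusp5 is 1 of 19 immediate early genes tested, of which 0 passed, 4 were higher on every Targretin array (3.56% of all probe sets were) and 0 lower, with a median of 0.17, or 0.54 without Targretin array 2. Nr4a1, an orphan nuclear receptor of the same list, differed by 0.79 ± 0.25 (adjusted p = 0.343).

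Of 15 ion and water channel genes, 0 passed, and Car2, carbonic anhydrase 2, differed by -0.78 ± 0.20 (adjusted p = 0.298). Of 18 cell cycle genes, 0 passed, 11 were below 0, and the median was -0.20. Cdkn1a, the cell cycle inhibitor p21, differed by 1.39 ± 0.47 (2.12 without Targretin array 2) and Cdc20, which drives exit from mitosis, by -0.95 ± 0.32 (adjusted p = 0.35 and 0.35). For a pair of genes the probe sets disagreed. Mcm6, of the helicase that opens DNA for replication, differed by -1.80 ± 0.43 at U17565_at but by -0.05 and -0.22 at its other probe sets, and Ptms, parathymosin, by 1.85 ± 0.45 at rc_AA892800_at but by 0.15 and 0.36 at the others. In 37 of the 38 gene lists, 0 members passed.

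Lung was the organ with the fewest calls: the same comparison called 348 of 6084 probe sets (5.72%) in liver and 124 of 6059 (2.05%) in mammary gland. The lung count was larger without diet array 2 and with only the groups compared, so these counts do not rank the size of the response. The difference between organs was tested as such, as the Targretin minus 9cRA difference in lung less that in the other organ. Against liver, 77 of 5342 probe sets passed (1.44%), 14 with the lung value above and 63 with it below (0.262% and 1.18%). Among fatty acid synthesis genes, Scd2 differed between the agents by 0.44 in lung, 4.72 in liver and 1.05 in mammary gland (lung minus liver -4.28 ± 0.58, adjusted p = 5.29e-06). Fasn differed by 0.20 in lung, 2.03 in liver and 0.78 in mammary gland (-1.84 ± 0.49, adjusted p = 0.0421) and Me1 by 0.20 in lung and 2.61 in liver (-2.41 ± 0.62, adjusted p = 0.0354). Of 15 alternatives, the organ difference passed in all for Scd2, in 7 for Fasn and in 9 for Me1. Where these alternatives left out an array it was a lung array, never one of liver or mammary gland. Srebf1 had 1.40 in lung, 1.53 in liver and 1.41 in mammary gland, and neither organ difference passed (adjusted p = 0.972 or more). Among oxidation genes, Acot1 differed by 2.18 in lung, 8.21 in liver and -1.75 in mammary gland (lung minus liver -6.02 ± 0.93, adjusted p = 5.30e-05) and Cpt2 by -0.18 in lung, 2.35 in liver and -0.13 in mammary gland (-2.53 ± 0.31, adjusted p = 1.06e-06).

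Among retinoid genes, Aldh1a1 differed by -0.12 in lung, 1.44 in liver and -0.44 in mammary gland (lung minus liver -1.56 ± 0.31, adjusted p = 0.00226), while Cyp26b1, at 3.28 in lung, 1.44 in liver and 1.84 in mammary gland, did not pass against either organ (adjusted p = 0.5 against liver and 0.564 against mammary gland). Fmo1, a flavin monooxygenase of drug metabolism, had values of opposite sign in lung and liver, 0.51 in lung, -2.19 in liver and -0.31 in mammary gland (2.71 ± 0.33, adjusted p = 1.06e-06), and so had Atp1b1, a sodium pump subunit, at -0.37 in lung, 2.03 in liver and -0.30 in mammary gland (-2.41 ± 0.31, adjusted p = 2.23e-06). The organ differences of Acot1, Cpt2, Aldh1a1, Fmo1 and Atp1b1 from liver passed in all 15 alternatives. None of these left out a liver array, so dependence on a single liver array was not tested. Tns1 had 1.57 in lung and -0.02 in liver (lung minus liver 1.59 ± 0.42, adjusted p = 0.0385, passing in 8 of 15 alternatives).

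Against mammary gland, 18 of 5498 probe sets passed (0.327%), 15 with the lung value above and 3 below (0.273% and 0.0546%), and 3 passed once liver-dominant probe sets were left out. Scd, at 2.20 in lung, 1.02 in liver and -0.03 in mammary gland, passed (2.23 ± 0.50, adjusted p = 0.038), in 8 of 15 alternatives. Prkce had 1.36 in lung, 0.19 in liver and -0.47 in mammary gland (1.83 ± 0.34, adjusted p = 0.00697) and Lcn2 -2.91 in lung, -0.31 in liver and 0.84 in mammary gland (-3.75 ± 0.73, adjusted p = 0.0093), each passing in 14 of 15. Acot1 passed too (3.94 ± 0.93, adjusted p = 0.0471), in 4 of 15. Sec11a, a subunit of the signal peptidase, had -0.76 in lung, 0.14 in liver and 0.73 in mammary gland (-1.49 ± 0.30, adjusted p = 0.0142), passing in 12 of 15. Serpina1, the liver protease inhibitor alpha-1-antitrypsin, had 0.17 in lung, -0.73 in liver and -4.04 in mammary gland (4.20 ± 0.60, adjusted p = 0.000134). Its probe set is liver-dominant, and the summed hepatocyte signal averaged 141707 in diet mammary glands. The part of liver transcripts in its organ difference was not tested.

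**Figure D5:**
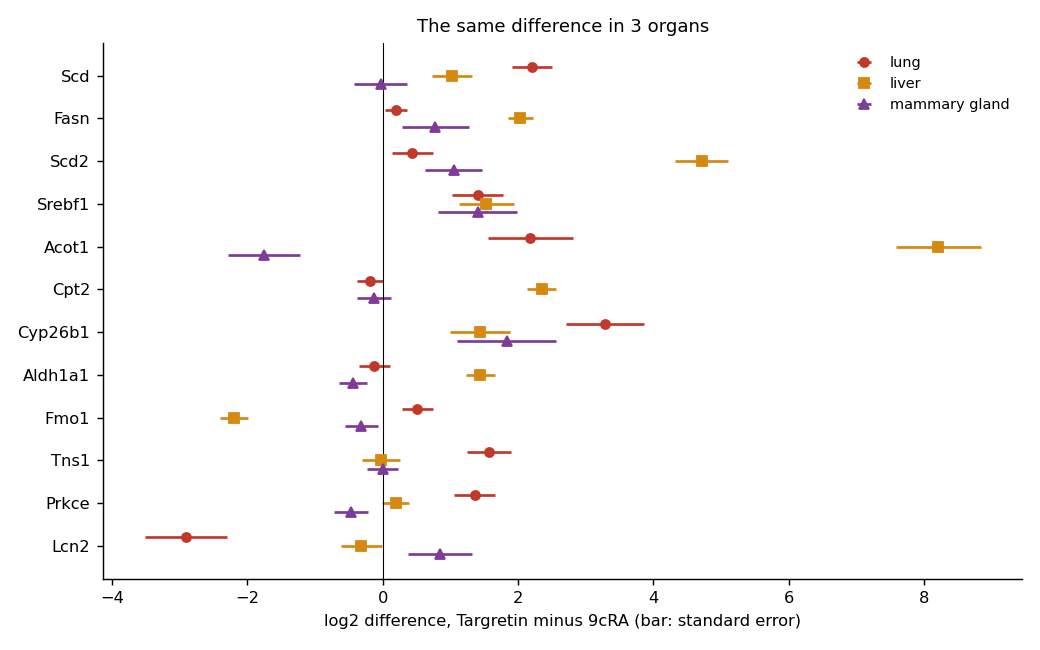
Log2 difference, Targretin minus 9cRA (horizontal axis, bars are standard errors), for 12 genes in lung (circles), liver (squares) and mammary gland (triangles). Scd, Cyp26b1, Fmo1, Tns1 and Prkce have their furthest right point in lung, and Lcn2 has its furthest left point there. Fasn, Scd2, Srebf1, Acot1, Cpt2 and Aldh1a1 have their furthest right point in liver. The organ differences of Cyp26b1 and Srebf1 did not pass.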

How the data were processed

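RNA of lung was hybridised 1 array a sample on Affymetrix rat genome arrays. The authors deposited intensity values, the MAS5 signal of each probe set per the submitters' processing notes; its version, the scanner and any detection call are not given in the sources that were used. The 2% trimmed mean was 1501.78 to 1502.46 on every lung array, so no scaling was added. Groups came from the labels.

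Of 8740 probe sets, 5935 had a signal above the 40th percentile of their array on at least 3 lung arrays. Their log2(signal + 38.1), with the 10th percentile of all values as pseudocount, was fitted with limma 3.58.1 in R 4.3.3 (lmFit, eBayes with trend) over all 14 lung arrays, with Benjamini-Hochberg adjustment and 0.05 as threshold. Organ differences were fitted over all 43 arrays. The procedure was tested on simulated data. Of the probe sets, 7018 had 1 gene symbol in the platform annotation, 308 several and 1473 none, and 6994 matched RefSeq. The platform's symbols can be old.

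The members, the 38 lists and the tests were chosen with earlier results of these data known. Named genes were the 15 smallest p-values each way among probe sets with 1 gene symbol, outside liver-dominant ones, whose 2 groups did not overlap. Added to these were 10 liver-dominant probe sets and up to 2 non-passing members of each list beside those that passed. All retinoid genes and the 8 smallest p-values of each organ difference were also named, and the text gives part of all these. Fasn, Scd2, Me1, Scgb1a1, Sftpc, RT1-Da, Csn3, Kctd13 and the second probe sets were picked after their values were seen. Alternatives were quantile normalization, no filter, a pseudocount 4 times larger, a block for replicate numbers and array weights. Others were only the groups compared, no liver-dominant probe sets and leaving out each lung array. For organ differences only Targretin and 9cRA lung arrays were left out. The milk protein genes, and leaving out Targretin array 2 and 9cRA array 1 together, were added after the data were seen. Upstream bases were searched as plain letters on both strands.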

Additional observations from a re-analysis of the deposited data

Results flagged for a closer look

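Of 73 sets of lung signals tested for an array far from the others of its group, 4 had one, all on 9cRA lung array 1. Chance gives about 1 in 20 for independent sets picked in advance, and the number is close to that rate. However, the 4 are not independent, since the milk protein sum holds Csn1s1 and Csn3. Also, Csn3, the sum and Kctd13 were picked after their values were seen. The count therefore cannot decide whether chance is enough. On that array Csn1s1 had a signal of 4882, Csn3 one of 4351.3 and the summed milk protein genes one of 14393.5, and Kctd13 one of 1583.1. The other 9cRA lung arrays stayed at 916, 983 and 2587 or less for the milk protein values and at 507 or less for Kctd13.

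The difference between the agents itself differed between lung and liver, by limma with adjusted p under 0.05, for 12 transcripts named here. The lung minus liver value was below 0 for Fasn (-1.84), Scd2 (-4.28), Me1 (-2.41), Aldh1a1 (-1.56), Acot1 (-6.02), Cpt2 (-2.53), Fabp1 (-3.60), Atp1b1 (-2.41), Csn1s1 (-5.58) and Csn3 (-2.67), and above 0 for Tns1 (1.59) and Fmo1 (2.71). Fabp1, Csn1s1 and Csn3 are transcripts whose lung signal varied between arrays with the liver and milk transcripts described above. In lung alone Csn1s1 differed by -2.895 and Csn3 by -1.56, so part of their lung minus liver values lay in the liver arrays. The organ differences of Fabp1, Csn1s1 and Csn3 passed in 9 of 14, 15 of 15 and 10 of 15 alternatives.

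Between lung and mammary gland it differed for 6. The lung minus mammary gland value was above 0 for Scd (2.23), Acot1 (3.94), Prkce (1.83) and Serpina1 (4.20), and below 0 for Lcn2 (-3.75) and Sec11a (-1.49). Serpina1 is liver-dominant, and the part of liver transcripts in its difference was not tested. Acot1 is the 1 gene of the 6 that passed against both organs, with opposite signs.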

How the results depend on the processing

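The single call between the agents in lung, Scd, became 2 under quantile normalization (Defb4 added), 2 with no filter on low values (Luzp4 added) and 19 with only the groups compared (3 above 0, 16 below, mostly liver transcripts). Without both arrays that stand apart it was 2, an alternative chosen after the data were seen. Leaving out each array in turn gave 0 to 15: 0 without Targretin array 1, 9cRA array 3 or 9cRA array 4, 5 without Targretin array 3 (Kctd13, Mcm6, Hnrnpab and Tns1 added) and 15 without diet array 2. The other settings, apart from the replicate block, gave 1.

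The 77 calls between lung and liver stayed within 1.5 times under every alternative run. They were 61 to 89 when each Targretin and 9cRA lung array was left out in turn. No liver or mammary gland array was left out. The 18 calls between lung and mammary gland were 8 with the larger pseudocount, 4 with only the groups compared and 3 without liver-dominant probe sets. They were 9 to 48 when each of the same lung arrays was left out. The count was 34 without Targretin array 1, 11 without Targretin array 2, 48 without Targretin array 3 and 9 without 9cRA array 3.

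Arrays share replicate numbers, but same-numbered lung arrays of the agents did not deviate together (residual correlations 0.068, -0.18 and -0.038), and 1 of 3 Targretin arrays correlated best with its own number, so they were not treated as paired. Same-numbered arrays of the same agent correlated at 0.076 to 0.265 between lung and liver and at -0.017 to 0.199 between lung and mammary gland, below 0.1 in at least 1 pair of each, so the organs were not treated as paired either. With the replicate block the lung count was 2 (Cyp2a3 added) and the count between lung and mammary gland 8; Scd and Acot1 no longer passed there, while the named calls between lung and liver all passed.

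Among 68 named probe sets under 22 settings, 1454 values kept their sign and side of the threshold, 3 lost the call, 18 gained it and 10 turned their sign. The sign turned for Rxra without Targretin array 1 or 9cRA array 1 (-0.293 to 0.576 over the fits that leave out 1 array), and for Aldh1a1 without 9cRA array 4 (-0.229 to 0.0456). It turned for Sftpc under quantile normalization (-0.0043), with array weights (-0.0915), without Targretin array 2 or 9cRA array 2 (-0.188 to 0.238) and without both arrays that stand apart (-0.0661). It turned for Rdh10 without Targretin array 2 (-1.25 to 0.0366) and without both arrays (0.172). The cause was not tested. Signals near the pseudocount of 38.1, such as Alb on the Targretin arrays, carry no order.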

Other observations

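The largest difference above 0 in lung, 4.79 ± 1.20 (limma adjusted p = 0.298), belonged to Kctd13 (rc_AA859966_i_at), an adaptor that hands proteins to an ubiquitin ligase, picked after its values were seen. It had 53528, 119725 and 774 on the Targretin arrays, against 1583, 296, 507 and 489 on the 9cRA arrays. Targretin arrays 1 and 2 stood far above every other lung array, and Targretin array 3 lay within the range of the 9cRA arrays. Without Targretin array 3 the difference was 7.00 (adjusted p = 0.00024, and 0.00024 to 0.496 over the alternatives run).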
